A study of Homo sapiens with 2 samples.

Results

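The exonic cytosines of human chromosome 13 were described in RNA bisulfite sequencing (RNA BS-Seq) data from 2 cell lines, with the genes that carried their unconverted counts. A cytosine position was chosen by its chromosome, by its place on a same-strand exon of a GENCODE basic transcript and by its measured coverage, the sum of its unconverted and converted counts, which had to be at least 10. On chromosome 13 this kept 17879 sites of MCF10A and 9341 of MDA-MB-468, or 21089 in either line and 6131 in both. The other nuclear chromosomes held 1563038 and 1259358 sites chosen in the same way. MCF10A is a noncancerous line from the epithelium of the breast, whereas MDA-MB-468 came from a breast cancer. Each line gave 1 library and had no replicate, so the line and the library cannot be told apart. In both lines poly(A) RNA was selected and then treated with sodium bisulfite, for 8 hours at 60 degrees. The sources differ on the medium. The labels give DMEM for both lines, whereas the study's methods give DMEM/F12 with horse serum, EGF, hydrocortisone and insulin for MCF10A, and RPMI with fetal bovine serum for MDA-MB-468.

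5-methylcytosine (m5C) is a cytosine that carries a methyl group on its ring, known from tRNA, rRNA and some mRNAs, where enzymes of the NSUN family and DNMT2 place it. Bisulfite changes an unmethylated cytosine of single-stranded RNA to uracil, which is read as T, whereas m5C is still read as C. A cytosine that bisulfite did not reach, in a stable RNA fold for example, is also read as C. An unconverted count is therefore not by itself an m5C count, and the methylation ratio used below is the unconverted counts of a site over its coverage.

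A site was called when its unconverted counts exceeded the background of its line by a one-sided Fisher's exact test, with the Benjamini-Hochberg adjusted p below 0.05 over all kept sites. The background, the unconverted share of all counts at the kept exonic and mitochondrial sites, amounted to 1.99% for MCF10A and 1.81% for MDA-MB-468. Chromosome 13 sites had a median coverage of 18 and a highest coverage of 1450 in MCF10A, and of 16 and 319 in MDA-MB-468. At a coverage of 10 no fewer than 4 unconverted counts were called in either line, and at a coverage of 50 no fewer than 6. Coverage also set who was a member. The 2086 MCF10A exonic sites of chromosome 13 with a coverage of 9, just left out, had 2.80% of their counts unconverted, and the 1670 sites with a coverage of 10, just kept, had 2.56%. The same values in MDA-MB-468 were 2.26% for 1332 sites and 2.43% for 1118 sites. All confidence intervals below are 95% Wilson intervals that cover counting error only. They are too narrow, because 1 read gives counts at several neighboring cytosines.

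The cell labels were set against markers at the same coverage minimum. KRT8 and KRT18, keratins of simple epithelium, had kept sites in both lines, and the basal keratins KRT5 and KRT6A had 395 and 173 in MCF10A. In MDA-MB-468 KRT5 had 174 kept sites and KRT6A had 0. EGFR, the receptor gene that is amplified in MDA-MB-468, had 1843 kept sites there with a mean coverage of 82.0, against 750 sites and a mean coverage of 17.7 in MCF10A. Not every epithelial marker was found. EPCAM, CDH1 and the basal keratin KRT14 had no kept site in MCF10A, and KRT14 had none in MDA-MB-468 either. EPCAM and CDH1 had 175 and 108 kept sites in MDA-MB-468. The leukocyte gene PTPRC and the endothelial gene PECAM1 had none in either line, whereas COL1A1, a collagen gene of fibroblasts, had 267 in MDA-MB-468 and 0 in MCF10A. The epithelial markers were thus found only in part in the library labelled MCF10A, and every value given for that line rests on its label. RB1, the tumor suppressor gene of chromosome 13 that MDA-MB-468 is known to have lost, had 11 kept sites in MCF10A, with 3 unconverted of 185 counts, and 0 kept sites in MDA-MB-468.

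Most called cytosines lay in short runs within sequence rich in G and C, and 7 windows are printed here as examples. Each is 29 nt of the RNA strand in the letters of GRCh37 (hg19), 5′ to 3′, with the cytosines called in at least 1 line in capitals. The TPT1, FOXO1 and ARGLU1 windows surround sites that the naming rule picked. The DZIP1, IRS2 and COL4A2 windows are centered on the called stretch with the highest median ratio of each gene and were chosen after the values had been seen.
TPT1, 5′UTR in exon 1, chr13:45915278-45915306, minus strand: ctccCCCCtCCCCCCgagCgCCgCtCCgg
FOXO1, coding sequence in exon 1, chr13:41239947-41239975, minus strand: cCCgCCgcCCgggCCgctgtcgcagcacc
ARGLU1, coding sequence in exon 1, chr13:107220046-107220074, minus strand: tgtcccggcgCgagCgggaCCgggagcgc
ARGLU1, coding sequence in exon 1, chr13:107220086-107220114, minus strand: cgggagtcgcggtCCCgttCgCgctccac
DZIP1, 5′UTR in exon 4, chr13:96294374-96294402, minus strand: gaccttaggCCgCCgCCgCCgcggaagcg
IRS2, 5′UTR in exon 1, chr13:110438617-110438645, minus strand: ggcggccacCgCCCgCgCCgggcatcctc
COL4A2, coding sequence in exon 44, chr13:111156277-111156305, plus strand: gggaggcgaggccCCCCtggggcaccggg

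In MCF10A, chromosome 13 carried unconverted counts above the level of most other chromosomes. Of 551707 counts at its exonic sites, 12845 were unconverted, which is 2.33% (2.289% to 2.368%), against 1.94% on the other nuclear chromosomes together. Only chromosome 14, at 2.46%, was higher among the 23 chromosomes with at least 1000 sites, and the 22 others ranged from 1.48% with a median of 1.95%. The test called 267 chromosome 13 sites, 1.49% (1.33% to 1.68%). Of all kept sites, mitochondrial ones included, 0.960% were called, and of those of the other nuclear chromosomes 0.843%. The 1.49% was the highest share of the 23 chromosomes, the others lying between 0.444% and 1.22%. The rank rested on IRS2, since the share without that gene was 1.12%, below the 1.22% of chromosome 19. At sites that were not called the unconverted share was 1.87% on chromosome 13 and 1.67% elsewhere, so the difference was seen there too. These values come from 1 library, and no test between chromosomes was made.

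In MDA-MB-468, 4308 of 226383 counts were unconverted, 1.90% (1.847% to 1.960%), against 1.77% on the other nuclear chromosomes. Chromosome 13 was the fourth highest there, and its 61 called sites, 0.653% (0.509% to 0.838%), put it at rank 14. Without TPT1 its unconverted share was 1.70% (1.65% to 1.76%), below the 1.77% of the other nuclear chromosomes. The called share without that gene was 0.381% (0.274% to 0.529%). The share of all kept sites called in this line, mitochondrial ones included, was 0.840%, and that of the other nuclear chromosomes was 0.742%, which lies within the interval of chromosome 13. The high share of called sites was therefore seen in 1 library of the 2. The lines also differed in which transcripts were covered. Over the 6131 sites kept in both lines, the chromosome 13 values were 2.13% (2.08% to 2.19%) for MCF10A, which had 62 called sites there, and 1.93% (1.87% to 2.0%) for MDA-MB-468, which had 49. The share called in each line at such sites of the other chromosomes is not given here. These counts thus do not show whether the high share depended on the covered transcripts.

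**Figure D1:**
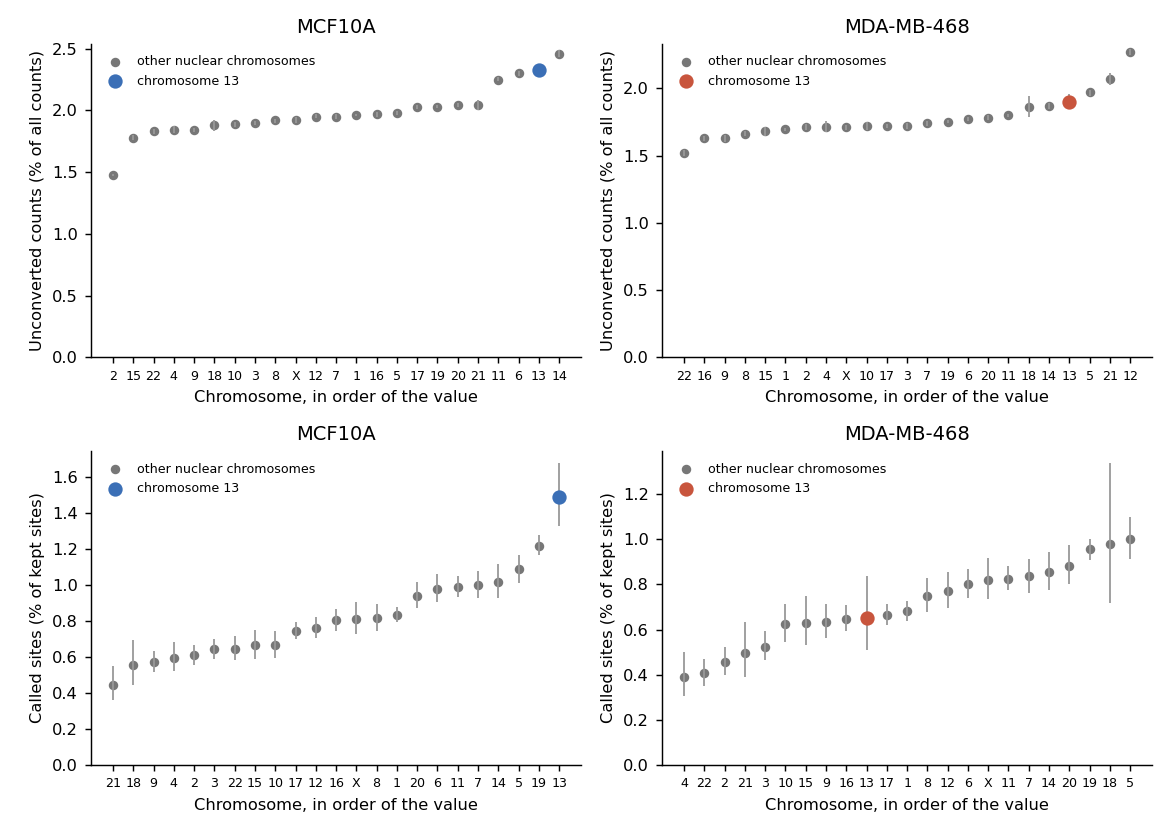
Unconverted counts as a percent of all counts (top) and called sites as a percent of kept sites (bottom) for the 23 nuclear chromosomes with at least 1000 exonic sites, in MCF10A (left) and MDA-MB-468 (right). Points are sorted by value, bars are 95% Wilson intervals, and chromosome 13 is the large colored point, at 2.33% and 1.90% unconverted and 1.49% and 0.653% called.

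The unconverted counts of chromosome 13 came from few genes. In MCF10A, 6 of 166 genes together held 50% of them or more and the 10 genes with most held 64.2%, a share that had a median of 36.9% on the other chromosomes and reached 65.9%. The same 10 genes held 60.3% of all counts of chromosome 13. In MDA-MB-468, 9 of 124 genes held that part and the leading 10 held 54.6%, where the other chromosomes had a median of 37%, and these genes held 47.3% of all counts. Among the 23 chromosomes with at least 1000 sites, only chromosome 18 had fewer exonic sites than chromosome 13 in each line. A gene with more counts has more unconverted counts, so the share of unconverted counts is given beside the share of all counts.

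In MCF10A the leading genes were TPT1, IRS2 and COL4A2. TPT1, which encodes the translationally controlled tumor protein, an abundant growth-related protein, held 1652 unconverted counts, 12.9% of the chromosome, with 11.5% of all counts. IRS2, the adaptor that links the insulin and IGF receptors to PI3-kinase, held 1475, which was 11.5% of the unconverted counts from 7.37% of all counts. COL4A2, a chain of type IV collagen in basement membranes, held 1440, 11.2% from 10.4% of all counts. These genes differed in how their unconverted counts were spread. Called sites held 55.7% of the unconverted counts of IRS2 but 30.3% of those of TPT1 and 25.1% of those of COL4A2. At the sites that were not called, IRS2 had 1.69% unconverted, COL4A2 1.95% and TPT1 2.02%.

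The next genes were GAS6, a ligand of the TAM receptor kinases, with 753 unconverted counts, and FOXO1, a forkhead transcription factor held in check by insulin signaling, with 749. LAMP1, a glycoprotein of the lysosome membrane, had 703, ARGLU1, a nuclear coregulator of splicing, had 500, and EFNB2, a ligand of Eph receptors, had 382. COL4A1, the partner chain of COL4A2, had 356. GAS6 and EFNB2 had a smaller share of the unconverted counts than of all counts, with ratios over all their counts of 1.75% (1.63% to 1.88%) and 1.49% (1.35% to 1.65%). ARGLU1 had a larger one, with 3.33% (3.06% to 3.63%). The last of the 12 were POLR1D, a subunit of RNA polymerases I and III, with 242, GTF3A, the 5S rRNA gene transcription factor, with 219, and TMCO3 with 216. GTF3A had 4.60% (4.04% to 5.24%) of its counts unconverted, whereas POLR1D had 2.11%, TMCO3 1.70%, and neither of them had a called site.

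**Figure D2:**
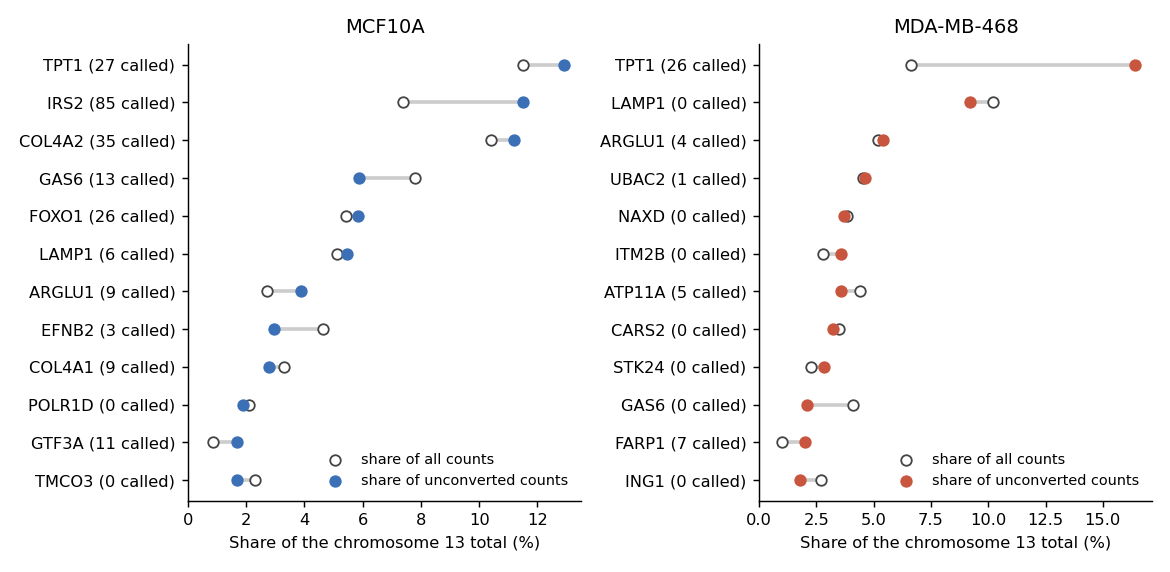
The 12 chromosome 13 genes with the most unconverted counts in MCF10A (left) and MDA-MB-468 (right), with each gene's share of all unconverted counts of the chromosome (filled) and of all counts (open), in percent. The number of called sites is beside each name, and the widest gap is that of TPT1 in MDA-MB-468, with 16.4% of the unconverted counts and 6.62% of all counts.

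TPT1 (chr13:45907606-45915419, minus strand) had most of its called sites near the start of the mRNA, with 22 of 27 there in MCF10A, and MDA-MB-468 had 25 of 26. The 5 others of MCF10A lay in the 3′UTR, at nt 856 to nt 901 in exon 6, with ratios of 16.7% to 22.7%, and the other one of MDA-MB-468 lay in the coding sequence at nt 300, with 9.18%. It is one of the mRNAs known to begin with a pyrimidine tract that ties their translation to growth signals. In MCF10A the called run spanned 36 nt, chr13:45915267-45915302, from nt 17 to nt 52 of the reference transcript, whose coding sequence starts at nt 115. All 22 kept cytosines in it were called. In MDA-MB-468 the run spanned chr13:45915249-45915299, nt 20 to nt 70, and all 25 kept cytosines were called. The run held 476 unconverted counts in MCF10A, 28.8% of those of the gene, and 377 in MDA-MB-468, 53.2%. Outside it TPT1 had 2.06% (1.94% to 2.18%) unconverted in MCF10A and 2.62% (2.35% to 2.91%) in MDA-MB-468.

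The ratios along the run followed the coverage more than the unconverted counts. At nt 22 of TPT1, MCF10A had 10 unconverted counts of 17 and MDA-MB-468 had 11 of 12. At nt 31 these values were 24 of 77 and 14 of 27, and at nt 52 they were 35 of 928 and 15 of 158. Between nt 22 and nt 52 the unconverted counts thus stayed within 10 and 35 in MCF10A, and within 10 and 20 in MDA-MB-468, while the coverage differed by more than an order of magnitude. The ratio was 58.8% (36.0% to 78.4%) at nt 22 and 3.77% (2.72% to 5.20%) at nt 52 in MCF10A, and 91.7% (64.6% to 98.5%) and 9.49% (5.84% to 15.1%) in MDA-MB-468. This decline with rising coverage, seen in both libraries, is a description, and its cause was not tested. TPT1 has named pseudogenes, and reads shared with such copies could not be told apart here.

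**Figure D3:**
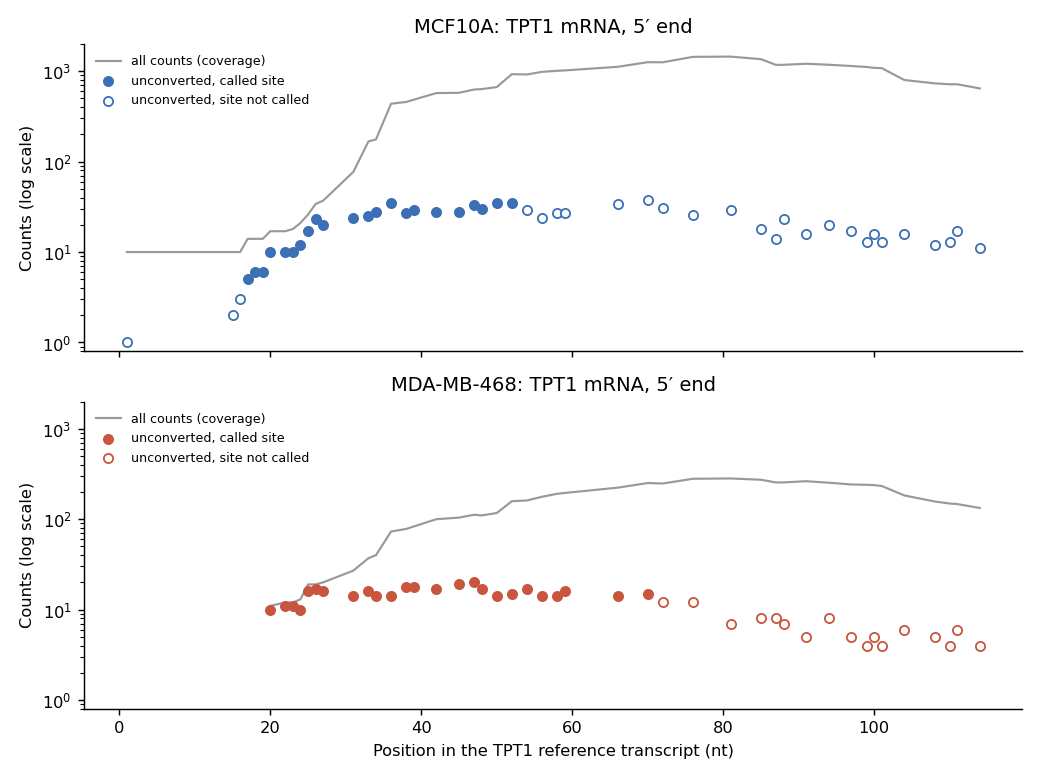
Counts on a log scale at each kept cytosine at the 5′ end of the TPT1 reference transcript, in MCF10A (top) and MDA-MB-468 (bottom). The line is the coverage, and points are the unconverted counts, filled at called sites (sites with no unconverted count are not drawn). From nt 22 to nt 52 the points stay between 10 and 35 in MCF10A, while the coverage goes from 17 to 928.

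IRS2 (chr13:110405042-110438930, minus strand) held 85 of the 267 called sites of MCF10A, 31.8%, the most of any gene. They formed 13 stretches, where a stretch joins called sites no more than 10 nt apart, and all lay in exon 1, in the 5′UTR and the coding sequence. Ratios varied within and between the stretches. The stretch at nt 295 to nt 304 in the 5′UTR had 7 called of 7 kept cytosines, with ratios of 35% to 76.9% at coverages of 20 to 26. The one at nt 2129 to nt 2138 had 4 of 4, with 53.8% to 65.4%, and the one at nt 993 to nt 1010 had 13 of 13, with 20.8% to 66.7%. The largest stretch, 16 sites at nt 2611 to nt 2633, ranged from 16.7% to 63.6% within 23 nt. The median ratio of the 13 stretches ranged from 23.5% to 69.6%. In the folding described below, 31 of the 85 sites were predicted as paired. With IRS2 left out, MCF10A had 181 called sites on chromosome 13, 1.12% of those kept, and 2.22% of counts unconverted. In MDA-MB-468 IRS2 had 105 kept sites with a mean coverage of 14, 15 unconverted counts of 1470 and no called site. At the same 105 sites MCF10A had 65 unconverted of 5253 counts, 1.24%, beside 1.02% in MDA-MB-468. In MCF10A 1646 sites were kept, so most of the gene had no value in MDA-MB-468.

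FOXO1 (chr13:41129804-41240778, minus strand) had 26 called sites in MCF10A, all in exon 1 and in 6 stretches. Its best covered stretch, nt 805 to nt 818 in the coding sequence, had 8 called of 9 kept cytosines, with 15 to 35 unconverted counts, coverages of 73 to 99 and ratios of 20.5% to 39.8%. The next, nt 765 to nt 773, had 4 of 4 with ratios of 33.3% to 45.5%. A single cytosine at nt 419, in the 5′UTR, had 18 unconverted of 26 counts. Together the called sites held 46.3% of the unconverted counts of FOXO1, and the other sites had 1.40% unconverted.

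The 2 type IV collagen genes, which lie head to head on opposite strands, had called sites through their coding sequences. COL4A2 had 35 in 11 stretches, from exon 8 to exon 46. In exon 44 a run of 4 cytosines at nt 4524 to nt 4527 had 17 to 21 unconverted counts and ratios of 60.7% to 72.4%, and a run at nt 4505 to nt 4508 had ratios of 17.2% to 53.3%. In exon 21, 8 cytosines of 8 were called with ratios of 17.9% to 24.0%. The better covered stretches had low ratios, with 8.89% to 11.1% at a coverage of 90 in exon 34. COL4A1 had 9 called sites in 4 stretches, the largest 4 sites in exon 26 with ratios of 30% to 42.1%. In MDA-MB-468 COL4A2 had 21 kept sites, with 2 unconverted of 231 counts, and COL4A1 had 0, so the collagen genes could not be compared.

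ARGLU1 (chr13:107194021-107220485, minus strand) was well covered in both lines, with mean coverages of 63.6 for MCF10A and 51.2 for MDA-MB-468. In MCF10A its 9 called sites lay in exon 1, 5 of them at nt 385 to nt 393 with ratios of 16.2% to 19.6% and 4 at nt 422 to nt 432 with 16.5% to 23.4%. In MDA-MB-468, 3 of the 4 kept cytosines at nt 422 to nt 432 were called, with 9.52% to 13.1%, and 1 cytosine at nt 386, with 11.3%. All 9 sites of MCF10A were predicted as paired.

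**Figure D4:**
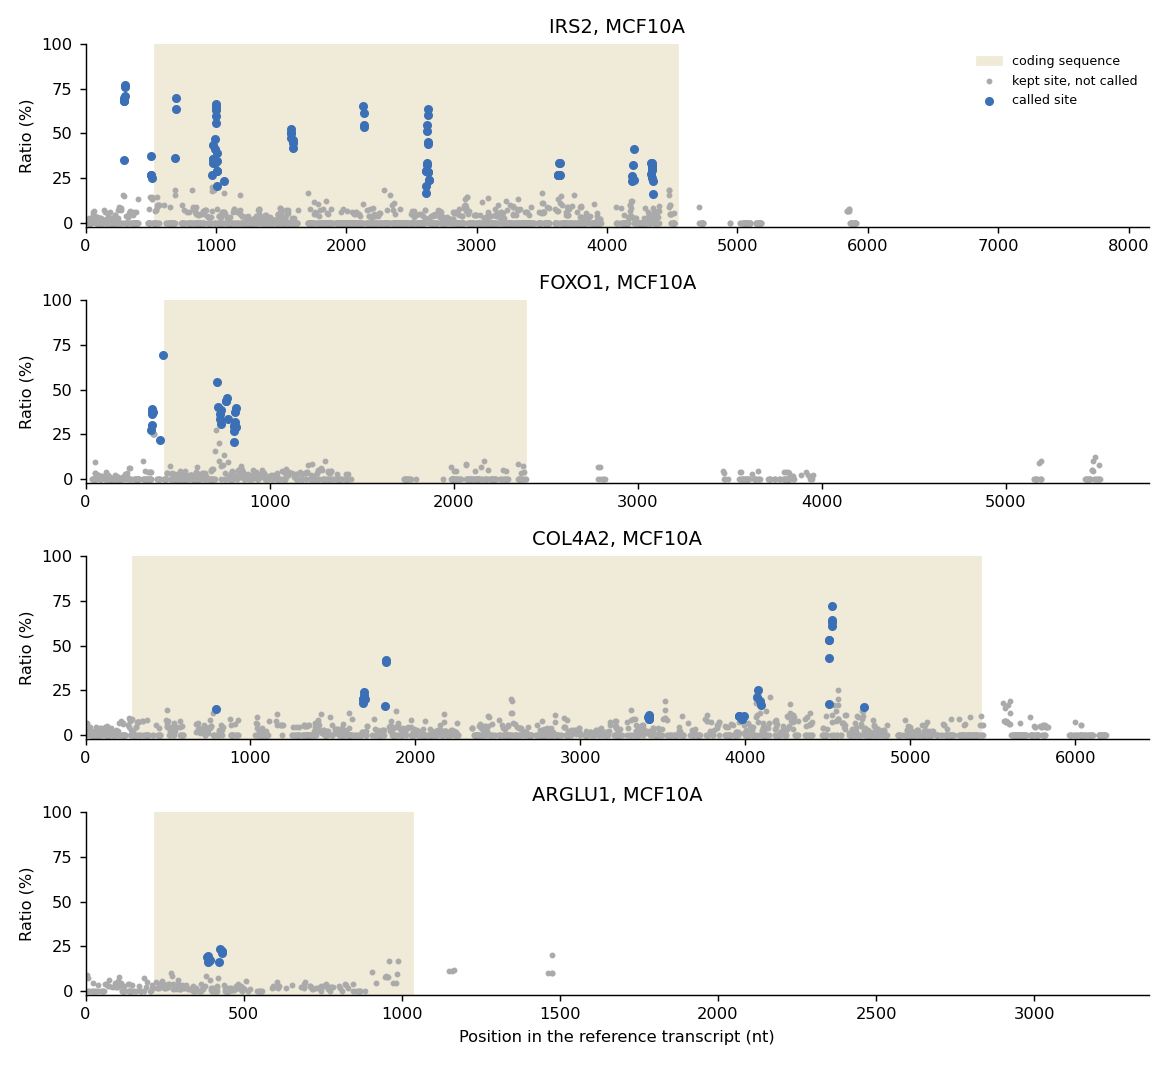
Methylation ratio in percent at each kept cytosine of MCF10A along the reference transcripts of IRS2, FOXO1, COL4A2 and ARGLU1, with the position in nt on the horizontal axis and the coding sequence shaded. Called sites (colored) stand in narrow columns, 85 of them in IRS2, 26 in FOXO1, 35 in COL4A2 and 9 in ARGLU1, above sites that were mostly near 0%.

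DZIP1 (chr13:96230456-96296960, minus strand), a zinc finger protein of cilium assembly, had a run of high ratios in both lines. The same 8 cytosines of a CCG repeat, chr13:96294383-96294393 in its 5′UTR, were called in each. In MCF10A they had 8 to 14 unconverted counts at coverages of 16 to 18, with ratios of 47.1% to 77.8%, and in MDA-MB-468 5 to 7 at coverages of 10 or 11, with 50% to 70%. Over the gene, MCF10A had 120 unconverted of 1893 counts, 6.34% (5.33% to 7.53%), and MDA-MB-468 had 53 of 275, 19.3% (15.0% to 24.3%). These values cover different sites, 144 of the first line but 23 of the second. Over the 19 sites kept in both lines the order was the other way, with 32.2% for MCF10A and 23.1% for MDA-MB-468. Away from the called sites the gene had 1.88% and 2.07%. All 8 cytosines were predicted as paired.

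Of the other genes with called sites in MCF10A, those with 3 or more were GAS6 (13), GTF3A (11), TFDP1 (10), LAMP1 (6), SLC7A1 (6), CUL4A (4) and EFNB2 (3). In GAS6, 12 adjacent cytosines at nt 29 to nt 45 of the 5′UTR had ratios of 26.7% to 40.7%. GTF3A had a run in its 5′UTR at nt 44 to nt 53 with ratios of 30% to 66.7%, and a second at nt 88 to nt 97 with 22.9% to 40%. TFDP1, the partner of E2F transcription factors, had 6 called sites at nt 40 to nt 51 with 33.3% to 50%. The 3 sites of EFNB2 lay in its 5′UTR at nt 446 to nt 451, with 12.9% to 13.8%. LAMP1 had 6 sites in its 3′UTR with ratios of 15.2% to 23.8%. SLC7A1, a transporter of cationic amino acids, had 6 in its 3′UTR with 36.4% to 72.7%. CUL4A, the scaffold of a family of ubiquitin ligases, had 4 in exon 1, each with 4 of 11 counts. GTF3A, TFDP1 and CUL4A have named pseudogenes, so reads of their copies may be among these counts.

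In MDA-MB-468 the order of the genes was different, and IRS2, COL4A2, FOXO1 and EFNB2 had at most 105 kept sites each. TPT1 led with 708 unconverted counts, 16.4% of the chromosome from 6.62% of all counts, and LAMP1 followed with 397, 9.22% from 10.2%. ARGLU1 had 232 and UBAC2, a protein of the endoplasmic reticulum, had 198. NAXD, which repairs damaged NADH, ITM2B, a membrane protein, and ATP11A, a lipid flippase, had 160, 154 and 153. CARS2, the cysteinyl-tRNA synthetase of mitochondria, had 138, STK24, a kinase, had 122 and GAS6 had 90. FARP1 had 86, and ING1, a reader of histone methylation, had 76.

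Outside TPT1, DZIP1 and ARGLU1, few sites were called in MDA-MB-468. FARP1 had 7 in its 5′UTR at nt 267 to nt 276, with ratios of 27.8% to 42.1%, and ATP11A had 5 in its 5′UTR with 21.1% to 30%. DNAJC3, a chaperone of the endoplasmic reticulum, had 4 in its 3′UTR with 28.6% to 50%, and UFM1, a ubiquitin-like modifier, had 3 with 4 of 12 counts each. FOXO1, UBAC2, TSC22D1 and the pseudogene CCT5P2 had 1 each. LAMP1, with 443 kept sites and a mean coverage of 52.0, had 1.72% (1.56% to 1.90%) of its counts unconverted and no called site.

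A site called in both lines rests on both libraries. Of the 6131 chromosome 13 sites kept in both lines, 32 were called in both, 0.522%. Of all sites kept in both lines, mitochondrial ones included, 0.621% were. The 32 sites are 12% of the called sites of MCF10A and 52.5% of those of MDA-MB-468. TPT1 held 19 of them, DZIP1 8, ARGLU1 4 and FOXO1 1. The FOXO1 site, chr13:41239973, had 20 unconverted of 74 counts in the MCF10A library and 4 of 10 in the other. Most other called sites could not be compared, since 205 of the 267 called in MCF10A were not kept in MDA-MB-468, and 12 of the 61 were not kept in MCF10A. With pseudogenes and genes with a named pseudogene left out, TPT1 among them, 13 sites were called in both.

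The ratios of the 2 libraries were compared by a two-sided Fisher's exact test at each site kept in both. On chromosome 13, 4 sites differed after Benjamini-Hochberg adjustment, 0.0652%, and 71 had an unadjusted p below 0.05. Of all shared sites, mitochondrial ones included, 0.0893% differed after adjustment. All 4 chromosome 13 sites lay in the TPT1 run and were higher in MDA-MB-468. At chr13:45915281 the library of MCF10A had 27 unconverted of 457 counts, 5.91%, and that of MDA-MB-468 had 18 of 78, 23.1% (Fisher's exact test, adjusted p = 0.013). At chr13:45915274 these values were 28 of 577, 4.85%, and 19 of 104, 18.3% (Fisher's exact test, adjusted p = 0.016). At chr13:45915280 they were 5.99% and 21.7% and at chr13:45915272 5.26% and 17.9% (Fisher's exact test, adjusted p = 0.028 for each). All 19 TPT1 sites called in both lines had the higher ratio in MDA-MB-468, by 5.72 to 36.1 percentage points, but they share reads and are not separate observations. The coverage at these 19 sites was 1.37 to 5.99 times higher in MCF10A, and with both libraries thinned to the lower coverage no site differed. Thinning also removes counts, which makes a difference harder to call, so this does not show that the ratios were equal. The 4 ARGLU1 sites were lower in MDA-MB-468, by 4.95 to 11.2 points, and the 8 DZIP1 sites went either way, none with an adjusted p below 1.0. The test compares 2 libraries and not 2 conditions.

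**Figure D5:**
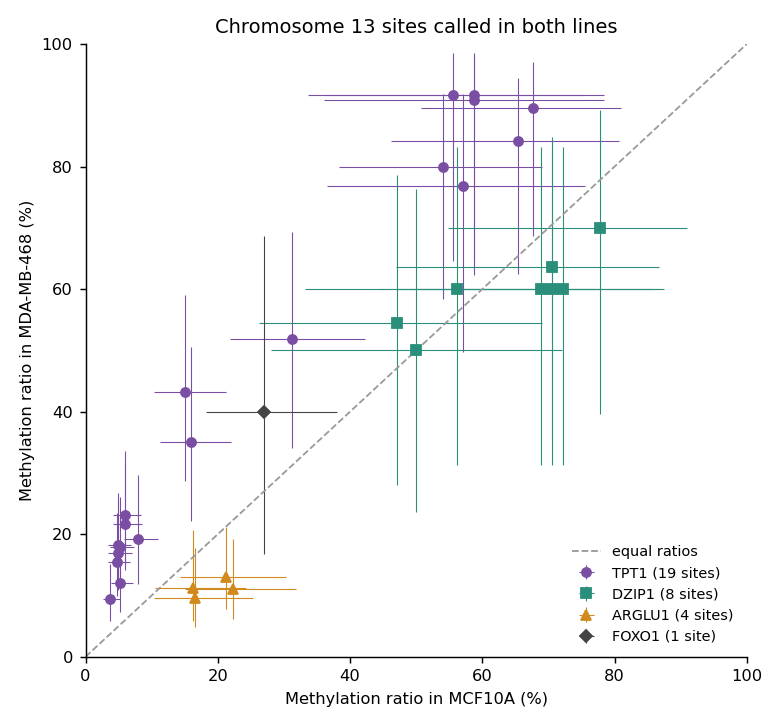
Methylation ratio in percent at the 32 chromosome 13 sites called in both lines, MCF10A on the horizontal and MDA-MB-468 on the vertical axis, with 95% Wilson intervals, by gene. The 19 TPT1 sites lie above the line of equal ratios, the 4 ARGLU1 sites lie below it, and the DZIP1 sites lie around it.

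The called sites stood side by side. In MCF10A the 267 called sites fell into 66 stretches, 22 of them single sites, and 38 stretches of 3 or more sites held 233, or 87.3%. In 32 of these 38 every kept cytosine was called, though a stretch begins and ends at a called site by its definition. In MDA-MB-468 the 61 sites fell into 13 stretches, of which 7 had 3 or more sites and held 55. Called sites of MCF10A had a median ratio of 33.3% and a range of 3.77% to 77.8%, and those of MDA-MB-468 had a median of 28.6% and a range of 5.98% to 91.7%. The 4 genes with most called sites held 64.8% and 75.4% of them. Of 138 protein-coding genes with kept sites in MCF10A, 25 had a called site, and of 102 in MDA-MB-468, 10 had one. With genes of every type counted, MCF10A had called sites on 25 of 166 chromosome 13 genes. The other nuclear chromosomes had them on 1866 of 9457 genes. For MDA-MB-468 these counts were 11 of 124 and 1369 of 8635. Genes with a called site were thus a smaller share on chromosome 13 than elsewhere in each library, a difference that was not tested.

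By position, called sites were most frequent in 5′UTRs. In MCF10A, 2.83% (2.29% to 3.50%) of the 5′UTR sites of chromosome 13 were called, 1.38% (1.18% to 1.61%) of the CDS sites and 0.848% (0.571% to 1.26%) of the 3′UTR sites. On the other chromosomes these shares were 2.23%, 0.606% and 0.837%, so the higher share of chromosome 13 was mainly in the CDS, where IRS2, FOXO1 and COL4A2 have most of theirs. Without IRS2 the CDS share was 0.845% (0.686% to 1.04%). In MDA-MB-468, 45 of the 61 called sites were in 5′UTRs, 3.44% (2.58% to 4.57%) of the sites there, against 1.94% on the other chromosomes. Of these 45 sites 25 were the TPT1 run, and without TPT1 the share was 1.61% (1.04% to 2.47%). The CDS share was 0.141% (0.0683% to 0.291%), against 0.554% elsewhere. On the reference transcripts, 68.5% of the called sites of MCF10A were in exon 1, which held 32.3% of the kept sites, and in MDA-MB-468 these shares were 70% and 23.2%.

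The sequence around the called sites was rich in G and C. In MCF10A, 207 of 267 called sites had at least 70% G and C in the surrounding 51 nt, and 4.09% (3.58% to 4.68%) of such sites were called, against 2.45% on the other chromosomes. Without IRS2 the chromosome 13 share was 3.13% (2.63% to 3.73%). Of the sites with 50% to 60%, 0.246% (0.134% to 0.453%) were called. MDA-MB-468 had 46 of its 61 called sites in the richest class, 2.05% (1.54% to 2.72%), against 1.90% on the other chromosomes. Without TPT1 that share was 1.17% (0.799% to 1.71%), below the other chromosomes. Such GC-rich sites made up 28.3% of the kept chromosome 13 sites in MCF10A and 19.9% of those on the other chromosomes. By trinucleotide, CCG was called most often in MCF10A, 5.16% (4.07% to 6.51%) of its sites, followed by GCC with 3.09%, GCG with 2.42% and CCC with 2.25%. CCG was also called most often on the other chromosomes, with 2.27%, and without IRS2 the chromosome 13 value was 3.06% (2.18% to 4.26%). In MDA-MB-468, CCG was called at 2.36% (1.43% to 3.85%) of its sites, beside 1.92% on the other chromosomes. Without TPT1 the chromosome 13 value was 1.44% (0.761% to 2.72%).

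RNA folds were predicted in windows of each covered transcript, at 70 degrees with pairs up to 150 nt apart. In MCF10A 12.5% of the chromosome 13 sites were predicted as paired, and 4.69% (3.89% to 5.65%) of the paired sites were called, against 1.04% (0.889% to 1.21%) of the unpaired ones. In MDA-MB-468 these shares were 1.62% (1.02% to 2.54%) and 0.523% (0.388% to 0.703%). The paired sites held 105 of the 267 called sites and 18 of the 61. The TPT1 run had 2 paired sites of 22 in MCF10A and none in MDA-MB-468. GC content, predicted pairing and exon position moved together with the calls, and their part in them was not tested.

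Genes were also grouped by role, in lists that held 155 of the 267 called sites of MCF10A and 42 of the 61 of MDA-MB-468. IRS2, GAS6 and DZIP1, with 85, 13 and 8 called sites in MCF10A, are in no list. The counts of genes below stand beside the 25 of 138 and 10 of 102 protein-coding genes with a called site. Of 26 genes of transcription, RNA processing and transport, 19 had kept sites in MCF10A and 5 had called ones (ARGLU1, FOXO1, GTF3A, NUP58 and ZC3H13, 48 sites). In MDA-MB-468 16 had kept sites and ARGLU1, FOXO1 and TSC22D1 had 6 called sites. Of 34 genes of membrane, matrix, adhesion and signaling, 20 had kept sites in MCF10A and 7 had called ones (61 sites), with COL4A2, COL4A1, LAMP1 and SLC7A1 in the lead, and 14 had kept sites in MDA-MB-468, where ATP11A alone had called ones. In the list of 7 translation genes TPT1 was the only one with called sites in either line.

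The smaller groups had fewer. Of 15 genes of protein folding, ubiquitin and proteasome, 12 had kept sites in each line. CUL4A, HSPH1 and UBAC2 had 7 called sites in MCF10A, and DNAJC3 and UBAC2 had 5 in MDA-MB-468. Of 17 genes of chromatin, replication, repair and cell cycle, TFDP1 had 10 in MCF10A, and none had one in MDA-MB-468. Of 8 genes of mitochondria and metabolism, ESD had 2 in MCF10A. The list of 4 noncoding genes, MIR17HG among them, could hardly be assessed, since MCF10A had 1 kept site there and MDA-MB-468 had 0. The median ratio over all counts of a gene was 2.11% in the transcription list, 2.76% in the folding list and 1.63% in the membrane list in MCF10A, beside 1.66% over all 166 genes. It was 2.47% in the translation list, where it rests on 4 genes, 1.93% in the chromatin list and 1.52% in the mitochondrial list. In MDA-MB-468 the first 3 of these medians were 1.86%, 1.73% and 1.40%, and the others 1.18%, 1.24% and 4.62%, beside 1.26% over 124 genes. The 4.62% of the mitochondrial list rests on 4 genes, and over all their counts 1.87% (1.61% to 2.17%) were unconverted. No list was tested as a group.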

How the data were processed

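RNA BS-Seq of 1 library each of MCF10A and MDA-MB-468 was used. Per the study's methods, the authors trimmed the reads with Trim Galore, aligned them to hg19 with MeRanGs of MeRanTK and called cytosines with MeRanCall. The submitters' processing notes name Bismark, which the methods give for DNA. The deposited values are, at every cytosine listed, the count of reads that kept the C and the count that did not, with no normalization. No site with a coverage below 5 is in the deposited counts, introns are, and the structure filter of the methods is not in them. Each nuclear position kept here was checked and fell on a cytosine of GRCh37. Exons came from GENCODE release 44 mapped to GRCh37, and a site on several genes was given to a protein-coding gene first, then to a long noncoding RNA, a small RNA and a pseudogene. The transcript positions are those of 1 reference transcript for each gene.

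Each site was set against the background by Fisher's exact test (one-sided), with Benjamini-Hochberg adjustment at 0.05, and libraries by a two-sided Fisher's exact test for each of the 812729 sites kept in both. The study's QNB was not used, since it was not installed. The code ran on Python 3.11.15, numpy 2.4.6, scipy 1.17.1, pandas 2.3.3 and numba 0.67.0, and was tested on simulated data. Structures came from ViennaRNA 2.7.2 (MEA, gamma 0.1) in windows of 1000 nt with a step of 500 nt. Alternatives covered the coverage minimum, the exons, the predicted pairs, gene copies, the background, the test, the adjustment, the ratio and left-out genes.

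The members, the gene lists and the tests were chosen with earlier results of these data known. Named were the 12 genes with most unconverted counts in each line, the genes with at least 3 called sites, listed genes with a called site, RB1, the 10 best sites called in both lines at a coverage of 20, the 3 best covered sites of each line with a ratio of at least 0.2 and the sites that differed.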

Additional observations from a re-analysis of the deposited data

Results flagged for a closer look

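Chromosome 13 cytosines outside same-strand exons, with a coverage of at least 10, were not part of the comparisons. In MCF10A 899 such sites had 799 unconverted of 14063 counts, 5.68% (95% Wilson interval 5.31% to 6.08%), above the 2.33% of the exonic sites. In MDA-MB-468 3426 such sites had 932 of 44631, 2.09% (1.96% to 2.23%), beside 1.90% at exonic sites. They include introns, unannotated transcripts and the strand opposite to a gene. No control sample was at hand to set these values against.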

How the results depend on the processing

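No result reversed, and of 80 alternative values 53 lay within the range set for no change. At a coverage minimum of 20 MCF10A had 2.20% and MDA-MB-468 1.76% unconverted, the leading 10 genes held 78.2% and 70.6%, 12 and 4 protein-coding genes had a called site, MDA-MB-468 had 28 called sites and 18 sites were called in both lines. With sites predicted as paired left out, MCF10A had 2.11% unconverted, 161 called sites and 62.4% in the leading 10 genes, and 20 sites were called in both. Without pseudogenes and genes with a named pseudogene, the leading 10 genes held 72.4% and 58.1%, MDA-MB-468 had 1.68% unconverted and 31 called sites, 13 sites were called in both and 0 differed. With a ratio of at least 0.2, 17 sites were called in both. With TPT1, the leading gene, left out, MDA-MB-468 had 1.70% and 35 called sites. Ranked by the excess over their coverage, the leading 10 genes held 55.7% and 32.5%. With coverage thinned to the lower of the libraries, 0 sites differed, but fewer counts also make a difference harder to call. Chosen after seeing the data were the window folding, the values without IRS2, at which MCF10A had 2.22%, and those of sites kept in both lines, at which MCF10A had 2.13% and 62 called sites. Folding of full-length transcripts, planned at first, was not run for its length. The exons, the background, the test and the adjustment left each count within 1.5 times its first value. No paired analysis was possible because each line has 1 library. Depth limits the calls, since 54.7% of the chromosome 13 sites of MCF10A and 61.5% of those of MDA-MB-468 had a coverage below 20, where at least 4 unconverted counts are needed.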
